A study of Homo sapiens with 19 samples.

Results

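Glutamine feeds carbon and nitrogen into growing tumour cells, and the data described here are the binding sites of the orphan nuclear receptor ERRα at 9 genes that carry, make or break down glutamine or its product glutamate: the transporters SLC1A5, SLC7A11, SLC38A1 and SLC38A2 and the enzymes GLS2, GLUL, GLUD1, GOT1 and GOT2. They are 9 of the 20090 protein-coding genes considered on the autosomes and the X chromosome. For each gene, every ERRα ChIP-seq peak was listed whose centre lay within 20 kb of an annotated transcription start, or inside the gene body, in hg19 coordinates (the GRCh37 build). The 8 deposited peak lists held between 1 and 7 such peaks wherever a gene had any, and overlapping peaks (1 bp or more in common) were joined across lists into 39 sites, of 90452 sites in all.

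Glutamine enters cells through exchangers and sodium-coupled carriers, is deamidated to glutamate by glutaminases, and is rebuilt from glutamate and ammonia by glutamine synthetase. Glutamate is then turned into the tricarboxylic acid cycle intermediate α-ketoglutarate, either by glutamate dehydrogenase or by transaminases, or is spent on glutathione synthesis and on the import of cystine. ERRα binds DNA at a short word known as the ERR response element (ERRE) and is best known as a regulator of mitochondrial energy genes.

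The study mapped ERRα in human breast cancer cell lines with amplified HER2, a receptor tyrosine kinase. SKBr3 and BT-474 cells were starved of serum for 24 h and then given epidermal growth factor (EGF) or heregulin (HRG), each at 100 uM for 90 min as the labels state, or vehicle. A separate pair of lists came from parental SKBr3 cells (pSKBr3) and from lapatinib-resistant SKBr3 cells (LRSKBr3) kept in 2 uM lapatinib, an inhibitor of the EGF receptor and HER2. The labels call the parental cells untreated, and they mention serum starvation for the growth factor experiment only, so pSKBr3 and SKBr3 vehicle cells also differ in culture. Resistance and the presence of the drug cannot be told apart, because the resistant cells were harvested from medium that held it and the parental cells were not. The 5 SKBr3, pSKBr3 and LRSKBr3 lists were each made from 2 ChIP libraries pooled, against 1 input library of the same condition. The 3 BT-474 lists came from 1 ChIP library each, set against the same vehicle input.

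There was therefore 1 list per condition, and no spread between replicates could be measured, so no difference below carries a test or a p-value. The lists held between 22539 peaks (pSKBr3) and 41271 peaks (BT-474 HRG), with 32183 in SKBr3 vehicle, 32567 in SKBr3 EGF, 37195 in SKBr3 HRG, 32259 in BT-474 vehicle, 26832 in BT-474 EGF and 39777 in LRSKBr3. Each peak carries a score, read here as −10 times the log10 of the P value of MACS, the peak caller named in the study's methods and in the name of every peak. The lowest scores, at 50, match the stated cutoff of P 1e-05, but the files do not define the score, and the 3 SKBr3 lists of the growth factor experiment open with a comment that names another program, FindPeaks. Many of the strongest peaks share the value 3100. Because the score rises with sequencing depth, which is unknown here, peaks are mostly given by their score percentile, the rank of a peak among all peaks of its own list. Where a list had several peaks within a site, the highest is given. A percentile also depends on how many weak peaks its list holds, so equal percentiles in lists of unequal length are not equal ranks. As a check of the ChIP, the ERRα gene itself (ESRRA), a known target of its own product, held a peak with a score of 3100 in all 8 lists.

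ERRα occupied these genes in 2 broad ways. GOT1, GOT2, SLC38A1 and SLC38A2 held at least 1 peak in all 8 lists, and so did 30.3% of all protein-coding genes. SLC38A2 had no peak in BT-474 EGF when the distance to a start was limited to 10 kb, which left 3 such genes. GLS2, GLUD1, GLUL, SLC1A5 and SLC7A11 were bound in some lists only, in 3, 4, 5, 5 and 5 of them. GOT1 and SLC38A1 reached the score 3100 in each list. The weakest of the 9 by highest percentile was SLC7A11 in LRSKBr3, at 6.74.

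**Figure D1:**
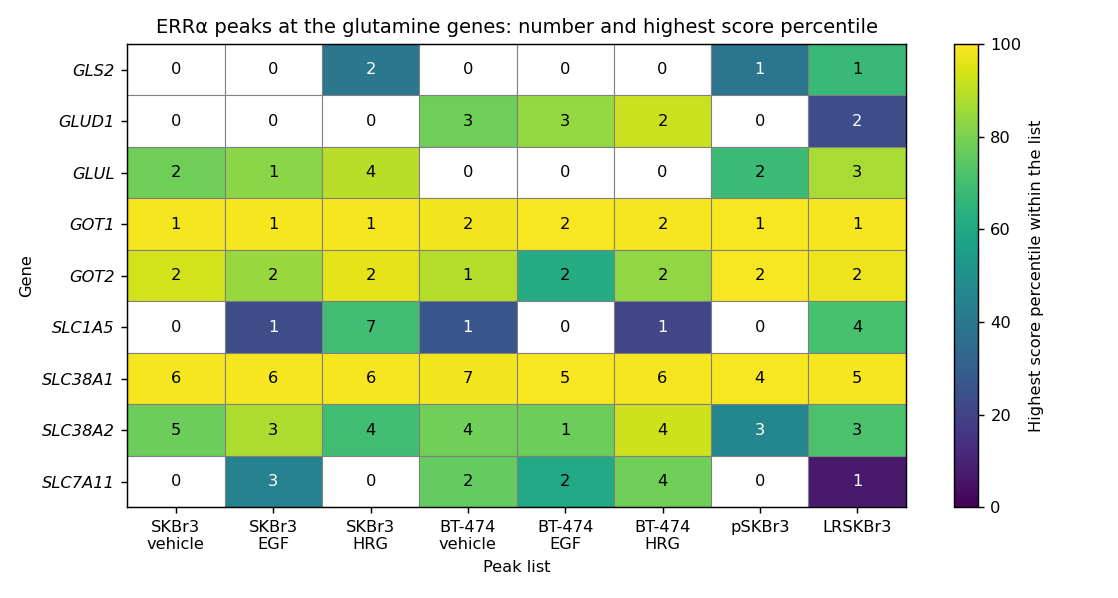
Number of ERRα peaks (figure in each cell) and highest score percentile within the list (colour, from 0 to 100; white where no peak was called) for the 9 genes (rows) in the 8 peak lists (columns). GOT1 and SLC38A1 are near the top of every list, GLUL has no peak in BT-474 cells, and SLC1A5 has no peak in pSKBr3 and 4 in LRSKBr3.

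Counted by list, 5 of the 9 genes had a peak in SKBr3 vehicle, beside 57.4% of all genes, 7 in SKBr3 EGF (59.7%) and 7 in SKBr3 HRG (69.5%). In BT-474 cells the counts were 7 with vehicle (56.7%), 6 with EGF (46.4%) and 7 with HRG (58.8%). In pSKBr3 cells 6 of the 9 had a peak (60.1%), and in LRSKBr3 cells all 9 did (72.6%). The window searched around the 9 genes had a median of 57960 bp, close to the 56151.5 bp over all genes. Among the 9704 genes whose windows were as long as those of the 9, the share with a peak was 64.6% in pSKBr3 and 77.9% in LRSKBr3.

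**Figure D2:**
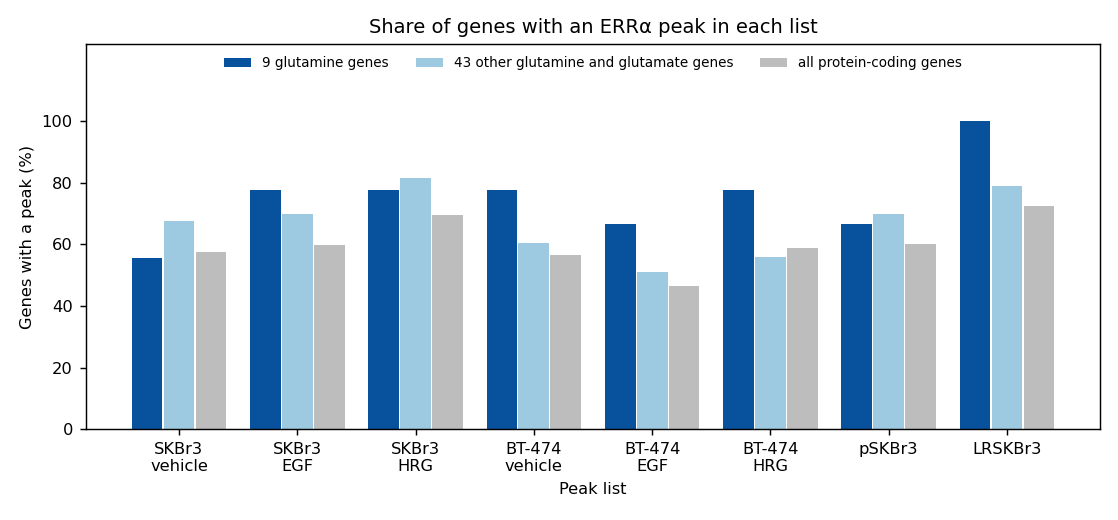
Percent of genes with at least 1 ERRα peak (vertical axis, from 0) in each of the 8 lists, for the 9 glutamine genes, 43 other genes of glutamine and glutamate metabolism and all 20090 protein-coding genes. The bar of the 9 genes stands at 100% in LRSKBr3, where the share over all genes is 72.6%, and just under that of all genes in SKBr3 vehicle.

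The DNA under the sites shows where the receptor's own word lies. The ERRE was searched as TCAAGGTCA and its shorter core as AAGGTCA, which is part of the longer word, both on either strand. TGACTCA and TGAGTCA, the word of the AP-1 factors that act downstream of growth factor receptors, were searched as well. The full ERRE occurred at 4 of the 39 sites (10.3%, beside 12.9% of all sites). All 4 are printed here from GRCh37 with the ERRE in capitals. They are the only places at these genes where the whole word stands under a peak. At SLC38A1 the first word lay 3 bp from the centre of an intronic site called in all 8 lists. The second lay 27 bp from the centre of a BT-474 HRG site. At GOT2 and SLC7A11 it stood 1399 bp and 393 bp from the centres.
SLC38A1 intron, chr12:46630011-46630099, minus strand: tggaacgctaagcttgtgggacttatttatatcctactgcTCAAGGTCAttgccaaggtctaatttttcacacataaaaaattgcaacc
SLC38A1 intron, chr12:46600331-46600419, minus strand: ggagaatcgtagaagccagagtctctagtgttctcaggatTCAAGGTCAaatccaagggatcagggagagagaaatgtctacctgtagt
GOT2 upstream, chr16:58769945-58770033, minus strand: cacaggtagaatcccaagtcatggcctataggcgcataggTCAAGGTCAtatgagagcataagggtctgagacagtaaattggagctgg
SLC7A11 intron, chr4:139121884-139121972, plus strand: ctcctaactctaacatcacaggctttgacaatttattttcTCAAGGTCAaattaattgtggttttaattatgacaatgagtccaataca

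The shorter core is shown next at 4 places. Both words under the GOT1 promoter peak, which was among the strongest in every list, come first. The next word lay 74 bp from the centre of an SLC38A1 site called everywhere but in pSKBr3. The last lay 6 bp from the centre of the SLC7A11 site called in LRSKBr3 and not in pSKBr3. Capitals mark AAGGTCA. The GOT1 words are given with 9 bases on each side because they lie in or near an exon.
GOT1 5′ end, chr10:101190211-101190235, minus strand: gacccccgcAAGGTCAacctgggag
GOT1 upstream, chr10:101191260-101191284, minus strand: tgggtcttgAAGGTCAgcagatgga
SLC38A1 intron, chr12:46603255-46603341, minus strand: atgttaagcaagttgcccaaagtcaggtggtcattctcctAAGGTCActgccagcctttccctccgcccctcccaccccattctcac
SLC7A11 intron, chr4:139126288-139126374, plus strand: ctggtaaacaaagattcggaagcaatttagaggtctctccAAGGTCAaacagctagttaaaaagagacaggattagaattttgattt

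The AP-1 word is shown at 3 sites that differed between vehicle and growth factor lists or carried the highest GLUL peak, again in capitals. It lay 77 bp from the centre of an SLC1A5 site called with HRG only, 46 bp from the centre of an SLC7A11 site called with EGF in SKBr3 and with HRG in BT-474, and 358 bp from the middle of the GLUL site. There it was within 100 bp of a peak centre in SKBr3 vehicle only. Other sites with the word that near a peak centre are not shown. The SLC38A2 site 12688 bp upstream and the GLUD1 site 12662 bp into the gene were called with vehicle too. The SLC1A5 site 4787 bp upstream was called in BT-474 HRG only.
SLC1A5 intron, chr19:47284339-47284425, plus strand: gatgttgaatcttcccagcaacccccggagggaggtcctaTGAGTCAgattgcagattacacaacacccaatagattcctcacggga
SLC7A11 intron, chr4:139156934-139157020, plus strand: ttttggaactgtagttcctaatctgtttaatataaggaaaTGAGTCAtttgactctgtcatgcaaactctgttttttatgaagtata
GLUL upstream, chr1:182367313-182367337, plus strand: ctaaggcagTGACTCAgtgttcagg

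Within 100 bp of a peak centre, 2 of the 39 sites held the ERRE (5.13%), compared with 7.90% of all 90452 sites and 19.8% of the sites shared by all 8 lists. The shorter core was there at 11 sites (28.2%, beside 28.4% of all sites) and the AP-1 word at 6 (15.4%, beside 11.9%). Both ERRE sites belonged to SLC38A1. Over the whole width of the sites, 4 held the ERRE (10.3%, beside 12.9% of all sites). There 19 held the core (48.7%, beside 53.6%) and 16 the AP-1 word (41.0%, beside 36.8%). The shares at the 9 genes were thus near those of all sites.

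SLC1A5, the main sodium-dependent exchanger that brings glutamine into tumour cells (chr19:47278140-47291851, minus strand), had no peak in SKBr3 vehicle, BT-474 EGF or pSKBr3. It had 1 peak in SKBr3 EGF, 7 in SKBr3 HRG, 1 each in BT-474 vehicle and BT-474 HRG and 4 in LRSKBr3. Its site nearest the 5′ end of the gene, centred 928 bp upstream (chr19:47291165-47293492), was called in SKBr3 EGF with a score of 77.09, in SKBr3 HRG with 186.3 and in LRSKBr3 with 321.94. These scores correspond to percentiles of 22.8, 57.9 and 70.9, so the resistant cells had the strongest peak there and neither set of untreated SKBr3 cells had one. A further 6 SLC1A5 sites were called with HRG and with neither vehicle nor EGF in SKBr3. Among them, the site 7566 bp upstream (chr19:47298353-47300487) was called in SKBr3 HRG at percentile 63.7 and in LRSKBr3 at 29.5, and the intronic site 7546 bp into the gene (chr19:47283661-47284949) in SKBr3 HRG at 49.2. The peaks of BT-474 cells fell elsewhere, 16433 bp upstream with vehicle and 4787 bp upstream with HRG, at percentiles of 26.7 and 20.8.

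SLC7A11, which exports glutamate in exchange for cystine (chr4:139085251-139163503, minus strand), had no peak in SKBr3 vehicle, SKBr3 HRG or pSKBr3. It had 3 peaks in SKBr3 EGF, 2 in BT-474 vehicle, 2 in BT-474 EGF, 4 in BT-474 HRG and 1 in LRSKBr3. The site of highest median percentile, in an intron 41968 bp into the gene (chr4:139120336-139122704), was called in SKBr3 EGF at percentile 29.3 and in BT-474 cells at 76.1 with vehicle, 60.1 with EGF and 78.2 with HRG. BT-474 cells thus carried stronger peaks there than SKBr3 cells, whatever the treatment. The single LRSKBr3 peak lay in an intron 37178 bp into the gene (chr4:139125352-139127265), with a score of 56.71, close to the lowest score in the list. The same place was called in BT-474 cells with vehicle (percentile 26.8) and with HRG (52.0).

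The site nearest the start of SLC7A11 lay 6572 bp into the gene (chr4:139156045-139157758) and was called in SKBr3 EGF at percentile 28.4 and in BT-474 HRG at 57.8. Another, 16298 bp upstream (chr4:139178770-139180832), was called in SKBr3 EGF (44.1), BT-474 EGF (0.95) and BT-474 HRG (66.3). No list held a peak within 1 kb of the 5′ end of SLC7A11.

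SLC38A1, a sodium-coupled carrier that loads cells with glutamine and other neutral amino acids (chr12:46576846-46663800, minus strand), had 6, 6 and 6 peaks in SKBr3 vehicle, EGF and HRG, 7, 5 and 6 in BT-474 vehicle, EGF and HRG, 4 in pSKBr3 and 5 in LRSKBr3. A broad intronic site of 10836 bp, joined from 18 peaks (chr12:46647981-46658816), reached a score of 3100 in every list. The intronic site with the ERRE at its centre (chr12:46627766-46631344) was called in all 8 lists, at percentiles of 82.3, 70.2 and 62.1 in SKBr3 vehicle, EGF and HRG, 81.7, 79.0 and 87.9 in BT-474 vehicle, EGF and HRG, 27.8 in pSKBr3 and 63.6 in LRSKBr3. It was lowest in pSKBr3, and in SKBr3 cells it stood lower with either growth factor than with vehicle.

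A further SLC38A1 intronic site, 60576 bp into the gene (chr12:46601392-46605070), was called in every list but pSKBr3. Its percentiles were 59.2, 67.3 and 73.0 in SKBr3 vehicle, EGF and HRG, 50.8, 21.9 and 80.6 in BT-474 vehicle, EGF and HRG and 72.1 in LRSKBr3. At the promoter itself a site whose middle lay 10 bp from an annotated SLC38A1 start, over the untranslated first part of the transcript (chr12:46659833-46663895), was called in SKBr3 vehicle, EGF and HRG (64.5, 72.4 and 83.5), pSKBr3 (80.9) and LRSKBr3 (85.1). BT-474 vehicle had 1 peak over the same start, at percentile 15.0, and a separate one centred 3053 bp into the gene, at 25.5. Neither growth factor list of BT-474 cells held it.

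SLC38A2, a second carrier of the same family that lies next to SLC38A1 on the chromosome (chr12:46751971-46766556, minus strand), had 5, 3 and 4 peaks in SKBr3 vehicle, EGF and HRG, 4, 1 and 4 in BT-474 vehicle, EGF and HRG, and 3 each in pSKBr3 and LRSKBr3. Its strongest site lay 12688 bp upstream (chr12:46775704-46783476), with percentiles of 77.6, 87.7 and 69.3 in SKBr3 vehicle, EGF and HRG, 78.3, 77.4 and 92.3 in BT-474 vehicle, EGF and HRG, 46.2 in pSKBr3 and 71.6 in LRSKBr3. The site joined 11 peaks, not all at 1 place. The pSKBr3 value belonged to a peak at the end of the site nearer the gene (chr12:46776658-46778097), where SKBr3 HRG had a second peak at 42.3. The other pSKBr3 peak, further upstream, was at 25.5. At the start of the gene a site joined from 8 peaks (chr12:46761768-46766808) covered 2 neighbouring places. Nearer the start, peaks centred 872 to 1511 bp into the gene were called in SKBr3 vehicle at percentile 19.9, in SKBr3 HRG at 48.5, in pSKBr3 at 22.9 and in LRSKBr3 at 70.9. Of these LRSKBr3 had the strongest, with a score of 320.75 against 73.62 in pSKBr3. Peaks centred 3607 to 3728 bp into the gene were called in SKBr3 vehicle (26.3), SKBr3 EGF (36.96) and BT-474 HRG (33.5), and a BT-474 vehicle peak (22.8) spanned both places. BT-474 EGF had none.

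**Figure D3:**
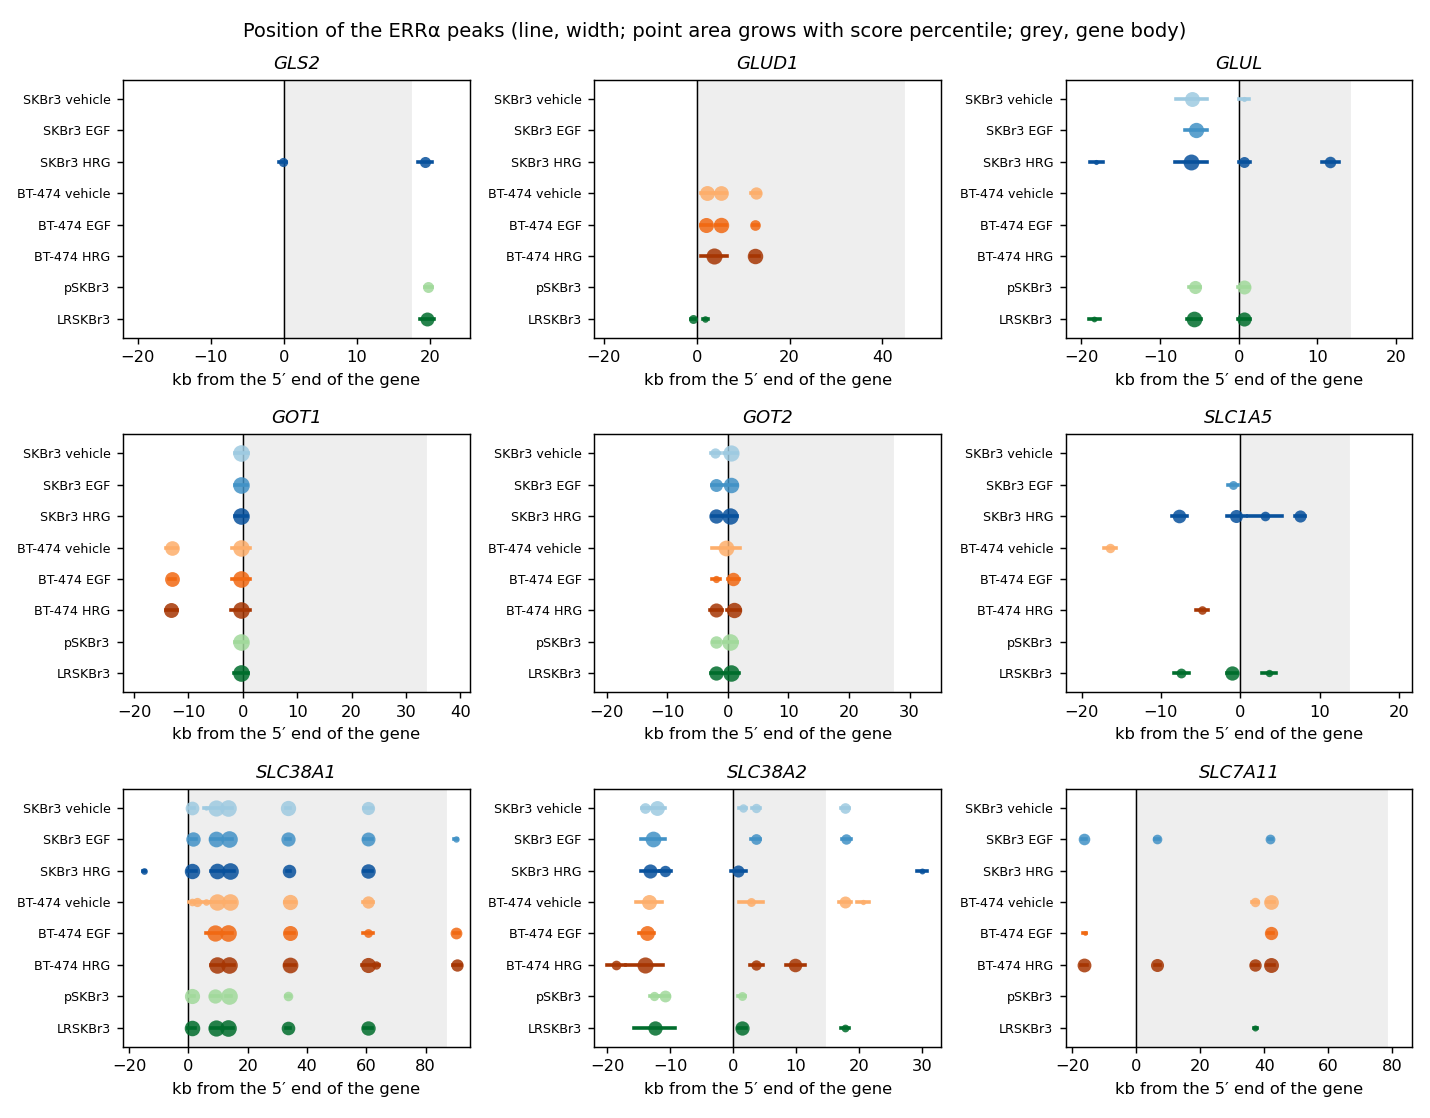
Position of the ERRα peaks at the 9 genes, except those of 3 SLC1A5 sites, in kb from the 5′ end of the gene along its direction of transcription (horizontal axis), by peak list (vertical axis). Lines give the width of a peak, point area grows with its score percentile and grey shading is the gene body. GOT1 and GOT2 have peaks at the 5′ end in every list, GOT1 has another upstream in BT-474 cells, those of SLC38A1 run through its introns, and most GLUD1 peaks are from BT-474 cells.

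GOT1, the cytosolic aspartate aminotransferase (chr10:101156627-101190381, minus strand), carried its peak at the promoter in every list. The site (chr10:101189125-101192458) was centred 284 bp upstream of the 5′ end and scored 3100 in all 8 lists, so a change between conditions would not show on this scale. A second site, 13091 bp upstream, was called in BT-474 cells only, at percentiles of 74.5 with vehicle, 76.7 with EGF and 78.2 with HRG.

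GOT2, the mitochondrial aspartate aminotransferase (chr16:58741035-58768246, minus strand), also held its site at the promoter. The site (chr16:58766165-58771125) joined 15 peaks at neighbouring places, and the median of their centres lay 344 bp upstream. Except in BT-474 vehicle, the stronger peak was centred 357 to 1004 bp into the gene. The highest percentile of the site was 93.2, 84.6 and 95.8 in SKBr3 vehicle, EGF and HRG, 88.9, 61.7 and 83.5 in BT-474 vehicle, EGF and HRG, 98.8 in pSKBr3 and 97.1 in LRSKBr3. In both cell lines EGF gave the lowest of these values. Apart from BT-474 vehicle, where 1 peak spanned the whole site, each list had a second, weaker GOT2 peak about the ERRE, further upstream. Its percentiles were 33.1, 56.7 and 71.4 in SKBr3 vehicle, EGF and HRG, 12.6 and 68.9 in BT-474 EGF and HRG, 52.2 in pSKBr3 and 70.9 in LRSKBr3, so in SKBr3 cells it was lowest with vehicle.

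GLUL, glutamine synthetase (chr1:182347233-182361341, minus strand), was bound in all 5 lists of SKBr3 origin and in none of BT-474 cells. The strongest site in each of these lists but pSKBr3 lay 5626 bp upstream (chr1:182365318-182369467), nearer to the start of TEDDM1. Its percentiles were 78.0, 82.5 and 89.8 in SKBr3 vehicle, EGF and HRG, 58.6 in pSKBr3 and 87.0 in LRSKBr3. At the promoter (chr1:182359918-182361384) a site 119 bp from an annotated GLUL start was called in SKBr3 vehicle with a score of 52.35, in SKBr3 HRG with 107.3, in pSKBr3 with 245.1 and in LRSKBr3 with 297.7. The percentiles in pSKBr3 and LRSKBr3 were 68.0 and 69.2. With HRG a peak was also called near the 3′ end of the gene at percentile 43.8.

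GLUD1, the mitochondrial glutamate dehydrogenase (chr10:88809959-88854600, minus strand), was the counterpart of GLUL, with 3, 3 and 2 peaks in BT-474 vehicle, EGF and HRG and none in the SKBr3 vehicle, EGF, HRG or pSKBr3 lists. The site over its first part (chr10:88848108-88853727) had percentiles of 77.9, 83.7 and 92.1 in BT-474 vehicle, EGF and HRG and 8.92 in LRSKBr3. It joined 2 neighbouring BT-474 peaks with vehicle and with EGF, and the EGF peak that the LRSKBr3 peak overlapped was at 79.4. LRSKBr3 had a second GLUD1 peak, 803 bp upstream of the 5′ end and 440 bp from the start of SHLD2, at percentile 23.2. A site 12662 bp into the gene was called in BT-474 cells only, at 50.7, 36.4 and 84.6 with vehicle, EGF and HRG. Of this site 55.2% has 4 near-identical copies elsewhere on chromosome 10, with 95.1% to 95.2% identity, so reads there may have been placed at the wrong copy.

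GLS2, the liver-type glutaminase (chr12:56864728-56882198, minus strand), was bound least often. A peak at its promoter, 175 bp upstream, was called in SKBr3 HRG only, at percentile 24.9. The other site lay past the 3′ end of the gene (chr12:56861705-56863884), 157 bp from the start of MIP, and was called in SKBr3 HRG (39.7), pSKBr3 (38.8) and LRSKBr3 (67.3). No BT-474 list held a GLS2 peak.

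Compared by site, pSKBr3 and LRSKBr3 shared 10 of the 20 sites called in either, and the other 10 were called in LRSKBr3 alone, 50% beside a background of 48.1%. No site was called in pSKBr3 alone, beside 6.74% of all sites called in either list. The 10 LRSKBr3 sites lay at SLC1A5 (4), GLUD1 (2) and GLUL, SLC38A1, SLC38A2 and SLC7A11 (1 each). Counted by gene, GLUD1, SLC1A5 and SLC7A11 had a peak in LRSKBr3 and none in pSKBr3 (3 of 9, beside 14.4% of all genes), and no gene had the reverse (0 of 9, beside 1.94%). When only peaks with P of at most 1e-08 were used, GLUD1 and SLC7A11 no longer had an LRSKBr3 peak, and SLC1A5 still had one there and none in pSKBr3. The 10 sites became 4 at that P value, and 2 when every list was shortened to its 22539 strongest peaks.

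At the 8 sites called in both lists and not at 3100 in both, the percentile was higher in LRSKBr3 at 7, with a median difference of 26.9 points. Over all 17958 such sites it was higher in LRSKBr3 at 79.8%, with a median of 11.6 points. The exception was GOT2, at 98.8 in pSKBr3 and 97.1 in LRSKBr3 by its stronger peak, which scored 3100 in pSKBr3; its weaker peak was at 52.2 and 70.9. The LRSKBr3 list was the longer of the pair. Ranked from the top of each list instead, a comparison added after the data were seen, LRSKBr3 stood higher at 5 of the 8 sites, and at 41.8% of all such sites.

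**Figure D4:**
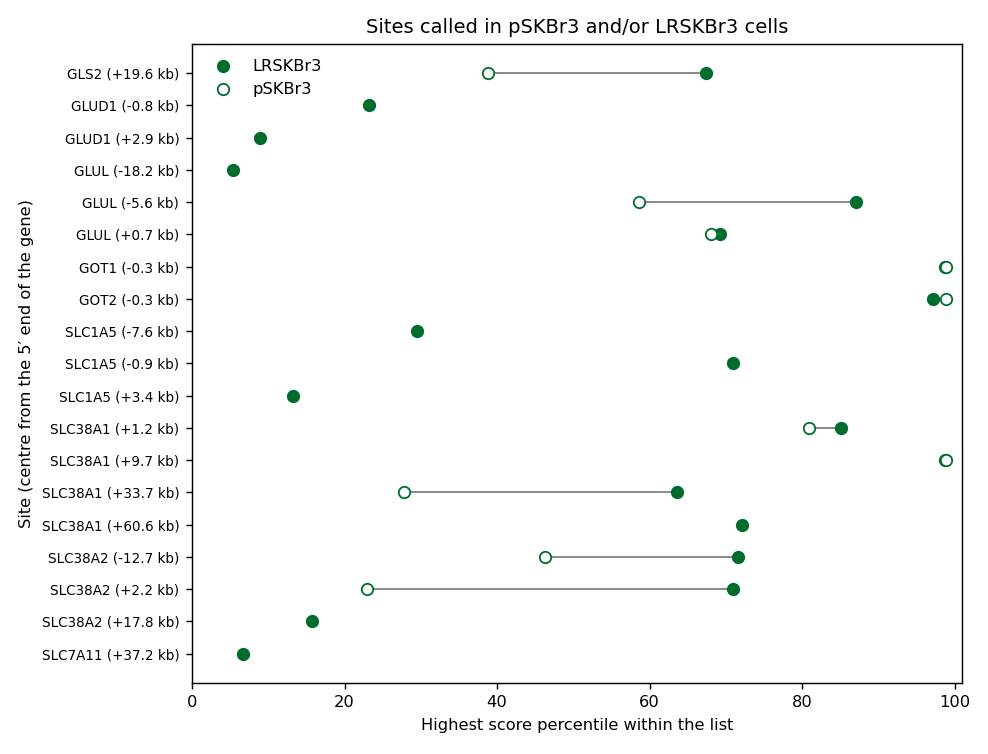
Highest score percentile within the list (horizontal axis) at 19 of the 20 sites called in pSKBr3 (open points), LRSKBr3 (filled points) or both (joined by a line); 1 SLC1A5 site is not drawn. The 9 sites without an open point were called in LRSKBr3 only, and among them the SLC1A5 site 928 bp upstream and the SLC38A1 site 60576 bp into the gene reach 70.9 and 72.1.

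With growth factors, SKBr3 cells had 17 of their 28 sites called with EGF or HRG and not with vehicle, 60.7% beside 43.4% over all sites. HRG alone accounted for 12 of the 28, 42.9% beside 24.6%, and 6 of these 12 were at SLC1A5. EGF alone gave 4, of which 3 were at SLC7A11 and 1 at SLC38A1, and 1 site, upstream of SLC1A5, came with both. No site was called with vehicle alone, beside 14.9% of all sites, but 2 were when joining required an overlap of 50% of both peaks or centres within 500 bp. By gene, GLS2, SLC1A5 and SLC7A11 had peaks on treatment and none with vehicle (3 of 9, beside 17.8%). With every list shortened to its 22539 strongest peaks, the 17 sites became 9.

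BT-474 cells gave a different set. Of their 23 sites, 7 were called with EGF or HRG and not with vehicle, 30.4% beside 37.6%, and 4 with vehicle alone, 17.4% beside 9.84%. These counts moved with the processing: the 7 became 4 with P of at most 1e-08 and 11 when peaks were joined by centres within 500 bp, and the 4 became 1 with P of at most 1e-10 or lists of equal size and 8 with the joining by centres. The 7 lay at SLC7A11 (2), SLC38A1 (2), SLC38A2 (2) and SLC1A5 (1). No gene of the 9 had peaks on treatment alone (0 of 9, beside 9.17%). At sites called both with HRG and vehicle, leaving out those at 3100 in both lists, HRG gave the higher percentile at 9 of 10 in BT-474 cells, with a median difference of 12.3 points, and at 6 of 8 in SKBr3 cells, with 12.8 points. Over all such sites HRG was higher at 64.3% and 52.6%, with medians of 4.37 and 1.09 points. Of sites chosen in the same way, EGF gave the higher percentile at 2 of 8 in BT-474 cells, with a median difference of -8.51 points, and at 5 of 8 in SKBr3 cells, with 6.13 points. Over all such sites EGF was higher at 34.9% and 43.3%. These counts depend on list length too. Ranked from the top of each list, HRG stood higher than vehicle at 6 of 10 sites in BT-474 and 6 of 8 in SKBr3 cells (43.5% and 45.2% over all sites), and EGF at 4 of 8 and 5 of 8 (52.0% and 42.4%). The comparisons in each cell line share their vehicle list.

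The sites called with HRG alone in SKBr3 cells had a median GC content of 49.8%, and the 4 called with EGF alone had 33.7%, against 44.1% over all 39. The lists as wholes differed too: the median GC content around peak centres was 44.8% in SKBr3 vehicle, 45.8% in SKBr3 EGF and 50.2% in SKBr3 HRG, and 51.7% in pSKBr3 and 49.3% in LRSKBr3. The part of base composition in the calls at SLC1A5 and SLC7A11 was not tested.

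Peaks around SLC1A5 were more numerous in the same lists. In the 1 Mb around its 5′ end, peaks other than its own numbered 21, 21 and 51 in SKBr3 vehicle, EGF and HRG, 24, 21 and 24 in BT-474 vehicle, EGF and HRG, 35 in pSKBr3 and 49 in LRSKBr3. Around SLC7A11, a region poorer in peaks, they numbered 1, 4 and 2, then 7, 4 and 12, then 0 and 4. Around GLUD1 they numbered 11, 13 and 12 in SKBr3 cells, 14, 11 and 14 in BT-474 cells, 7 in pSKBr3 and 20 in LRSKBr3. The lists in which SLC1A5 held its most peaks were thus also those in which its neighbourhood held most, and what part this has in the SLC1A5 counts was not tested.

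**Figure D5:**
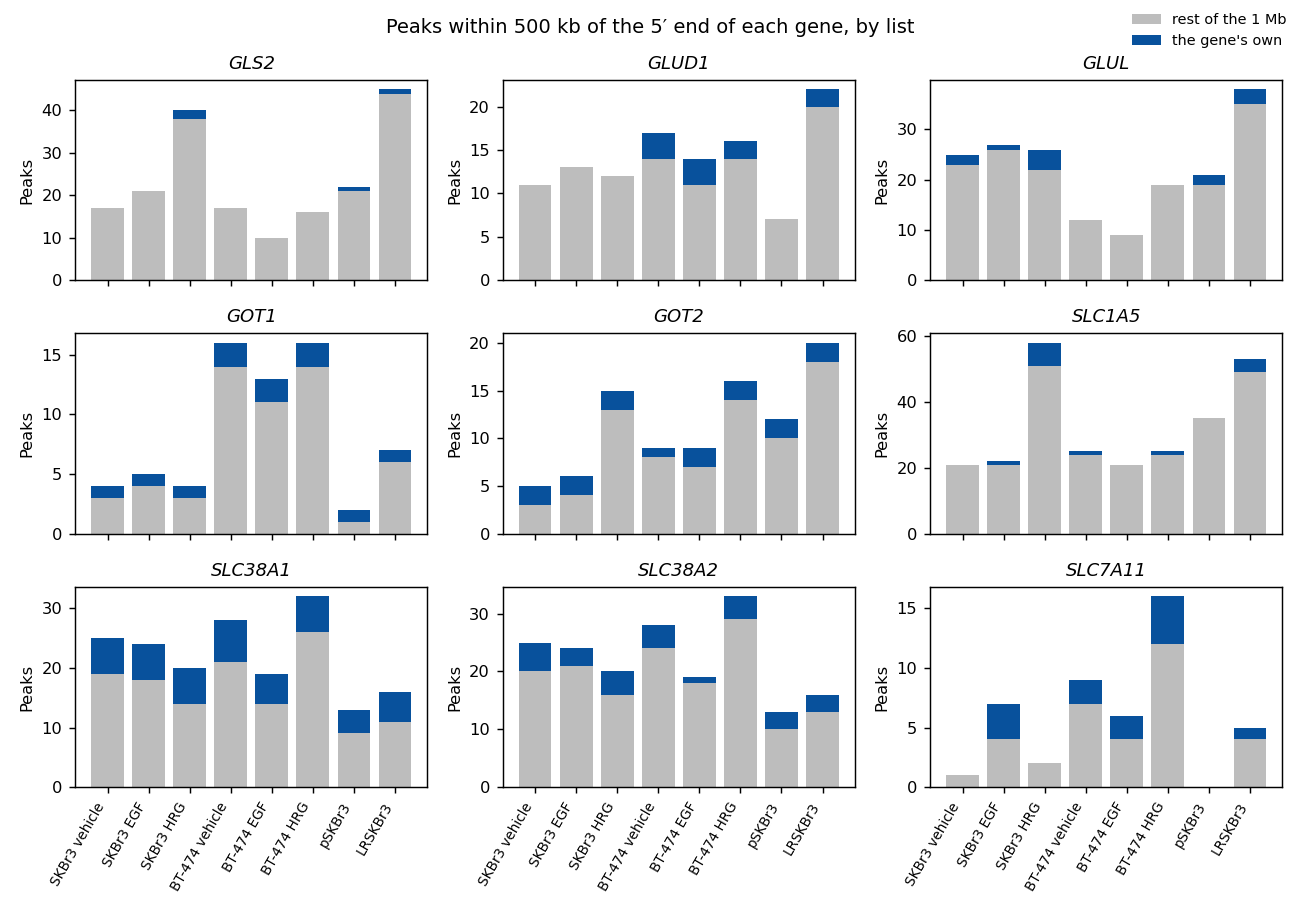
Number of peaks (vertical axis, from 0) within 500 kb of the 5′ end of each of the 9 genes in each list, divided into the gene's own peaks (blue) and the rest (grey). The rest reaches 51 and 49 around SLC1A5 in SKBr3 HRG and LRSKBr3, and 35 in pSKBr3, where SLC1A5 itself has no peak.

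Across cell lines, 15 of the 39 sites were called in both BT-474 cells and cells of SKBr3 origin, 16 in SKBr3 origin only and 8 in BT-474 only. These are 38.5%, 41.0% and 20.5%, beside 27.2%, 44.1% and 28.7% of all sites. The 5 sites called in all 8 lists (12.8%, beside 7.1% of all sites) were the GOT1 and GOT2 promoters, the broad SLC38A1 site, the SLC38A1 site with the central ERRE and the upstream SLC38A2 site. A further 14 sites were called in 1 list, 35.9% beside 41.6%. Across all 39 sites, 6 lay within 1 kb of the 5′ end of their gene. No share over all sites is given for this count, so it cannot be called high or low.

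Of 43 other genes of glutamine and glutamate metabolism, 29, 30 and 35 had a peak in SKBr3 vehicle, EGF and HRG, 26, 22 and 24 in BT-474 vehicle, EGF and HRG, 30 in pSKBr3 and 34 in LRSKBr3. In the same order, the shares of all genes were 57.4%, 59.7% and 69.5%, then 56.7%, 46.4% and 58.8%, then 60.1% and 72.6%. Among them 15 had a peak in all 8 lists (beside 30.3% of all genes), including the mitochondrial aspartate and glutamate carriers SLC25A12 and SLC25A13, the glutamate-cysteine ligase modifier GCLM, the alanine aminotransferase GPT2 and the transporter subunit SLC3A2, which pairs with SLC7A11 at the membrane. A peak in LRSKBr3 and not in pSKBr3 was found at 6 of the 43, a share near the 14.4% of all genes, and these were GFPT2, CTPS1, ALDH4A1, GCLC, SLC38A5 and SLC38A9. PFAS and PSAT1 had the reverse (2 of 43, beside 1.94% of all genes). No list held a peak at GFPT1, GLUD2, ALDH18A1 or SLC6A14, and the share of all genes without any peak is not given here.

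Other genes shared the pattern of presence over the 8 lists. Exactly the same lists as for SLC1A5 held a peak at 40 protein-coding genes (0.199%), as for SLC7A11 at 34 (0.169%), as for GLUD1 at 134 (0.667%), as for GLS2 at 562 (2.80%) and as for GLUL at 1086 (5.41%), the gene itself included. By highest percentile over the 8 lists, with 0 where no peak was called, the genes most like SLC1A5 were MIA2, CUL3 and LSM14A, with mean absolute differences of 5.29, 6.31 and 7.31 points. The genes most like GOT2 were MRPL36 and NDUFS6, both at 2.25 points, and RPL21 at 2.57. SLC1A5 had the largest rise in highest percentile from pSKBr3 to LRSKBr3 of the 9 (70.9 points) and GOT2 the largest fall (98.8 to 97.1, by the stronger of its peaks only).

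Of the peaks given here, the nearest inside the 20 kb limit was one of SLC38A2, 19821 bp from an annotated start in SKBr3 HRG, at percentile 5.90. The nearest outside were GOT1 peaks 20181 bp and 20375 bp away in BT-474 vehicle and BT-474 HRG, at 73.2 and 64.4. A list without a peak at a gene shows only that none passed the P value cutoff in that pool of reads, since the files give neither tag counts nor the depth of sequencing.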

How the data were processed

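ERRα ChIP-seq was done on 13 ChIP and 6 input samples. Per the study's methods, the authors aligned reads to hg19 with BWA 0.5.9 and called peaks with MACS (P cutoff 1e-05, bandwidth 300, mfold 10 to 30). The deposited peak lists give a score per peak, which the files do not define and which was read as the −10 log10 P of MACS; alternative P cutoffs rest on this reading. Replicate ChIP libraries were pooled by the authors before calling, so the lists were used as they stand and no count or depth was recovered.

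Here, gene starts and bodies were taken from GENCODE release 44 on GRCh37, for 1 gene per symbol, and peaks were assigned by centre and joined at 1 bp of overlap. Score percentiles are mid-ranks within a list. Words were searched on both strands within 100 bp of centres. Copies of sites were sought with minimap2 2.31 (at least 95% identity over at least 25% of the site). Python 3.11.15, numpy 2.4.6, pysam 0.24.0, samtools 1.23.1 and matplotlib 3.10.9 were used. Site joining and the assignment of centres to genes were tested on simulated data, and the word search was not.

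Sites were named by a rule: for each gene, the site of highest median percentile, the site nearest a start and up to 2 of the strongest sites called in LRSKBr3 and not pSKBr3 or with growth factor and not vehicle; other sites given were chosen after their values were seen. Genes with a like pattern were chosen by a rule as well. The genes, lists and rules were chosen with earlier results of these data known. Alternative P cutoffs, list sizes, overlaps, distances and words were tried, and ranks from the top of the list were added after the data were seen. Details of 3 sites counted at SLC1A5 are not reported here.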

Additional observations from a re-analysis of the deposited data

Results flagged for a closer look

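The effect of EGF on the number of SLC1A5 peaks went in opposite directions in the cell lines: EGF minus vehicle was 1 in SKBr3 cells (0 peaks with vehicle and 1 with EGF) and -1 in BT-474 cells (1 with vehicle and 0 with EGF). The difference was not tested, since each condition has 1 list, and the peaks concerned lay at different places, at percentiles of 22.8 and 26.7 of their lists. With P of at most 1e-08 the SKBr3 EGF peak was no longer there, within 10 kb of a start the BT-474 vehicle peak was not, and with P of at most 1e-10 or lists of equal size neither was.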

How the results depend on the processing

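Of 97 values recomputed under 11 alternatives, 77 stayed within 1.5 times the reported count and 20 did not; the cause of these shifts was not tested beyond what each alternative does by construction, keeping fewer peaks or splitting sites. With P of at most 1e-08, the growth factor sites of BT-474 cells went from 7 to 4 and the sites in LRSKBr3 and not pSKBr3 from 10 to 4. With P of at most 1e-10 the latter were also 4, the growth factor sites of SKBr3 cells went from 17 to 11 and the vehicle-only sites of BT-474 cells from 4 to 1. With every list shortened to its 22539 strongest peaks, the sites in LRSKBr3 and not pSKBr3 were 2, the growth factor sites of SKBr3 cells 9 and the vehicle-only sites of BT-474 cells 1. With 10 kb to a start, the growth factor sites were 9 in SKBr3 and 4 in BT-474 cells and the vehicle-only sites of BT-474 cells 2. With peaks joined when their centres lay within 500 bp, the growth factor and vehicle-only sites of BT-474 cells were 11 and 8, the vehicle-only sites of SKBr3 cells 2 in place of 0 and the sites in pSKBr3 and not LRSKBr3 1 in place of 0; an overlap of 50% of both peaks gave 2 and 1 for the last pair. Sites with an ERRE went from 2 to 11 with the shorter word and to 4 over whole peaks. Ranks from the top of the list, an alternative chosen after seeing the data, raised the BT-474 sites higher with EGF than with vehicle from 2 to 4. The genes with a peak in LRSKBr3 went from 9 to 7 under both stricter P values and with lists of equal size; GLUD1 and SLC7A11 were lost each time, and SLC1A5 had a peak there under each. Replicates could not be left out in turn, because the lists pool them. No paired analysis was possible because the result comes from no test and the pooled lists carry no replicate. Depth limits every statement on an absent peak.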
